A study of Mus musculus with 4 samples.

Results

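The genes that encode glutamate and GABA receptor subunits were examined for sites of Med1, Carm1 and Jmjd1c in neural stem cells (NSCs). They were chosen by symbol as the protein-coding genes of the GENCODE vM1 annotation of mm9 that start with Gria, Grik, Grin, Grid, Grm, Gabra, Gabrb, Gabrg or Gabbr and a digit, which gave 41 of 22380 genes. The symbol rule also took in Grid2ip, which encodes delphilin, a scaffold that binds the delta receptor and is no receptor itself. The cells were untreated NS-5 cells, a single mouse NSC line derived from embryonic stem cells and grown with EGF and FGF2, and all 4 samples came from it. ChIP-seq was done for Med1, part of the Mediator complex through which transcription factors reach RNA polymerase II, for the arginine methyltransferase Carm1, for Jmjd1c, a member of the JmjC family of histone demethylases, and for IgG, the control. There was 1 sample an antibody. No value therefore has a replicate error, and the samples allowed neither a test nor a p-value. Counts of receptor genes are set beside the percentage of all protein-coding genes with the same feature, and a difference between the 2 is a description of these samples.

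Glutamate is the main excitatory and GABA the main inhibitory transmitter of the brain. Both act on ionotropic receptors, which are ion channels built of several subunits (AMPA, kainate and NMDA receptors for glutamate, GABA-A receptors for GABA), and on metabotropic receptors, which signal through G proteins (the mGlu and GABA-B receptors). These genes are known above all from neurons, although neural progenitors and glia also express some of them, and many of them are very long. The ChIP-seq lists give binding and not expression, which was not analysed here.

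The whole dataset held 19956 Med1, 8759 Carm1 and 8078 Jmjd1c sites and 8089 enhancer regions. Site lists gave start and end only, and reads per sample were not given, so depth is unknown. Of the NSC and radial glia markers, 11 of 12 had a site of any of the 3 factors at the 5′ end or in the gene, Olig2 being the exception, against 51.7% of all protein-coding genes. The same held for 5 of 6 astrocyte markers, 5 of the 9 neuronal markers matched by symbol and 3 of 9 markers of endothelium, microglia and mesoderm. Sites outside a gene and its 5′ end are not in these counts, and the paper reports Mediator at an enhancer of Olig2. IgG signal over typical enhancers was higher on chromosome 11 (median of 203.4 per kb) and chromosome 15 (171.4 per kb) than on the other autosomes (115.1 to 133.7 per kb). On chromosome X the median was lower, at 67.3 per kb. Of the receptor genes 7 are on chromosome 11, and none of these had Med1 at the 5′ end or an enhancer region. On chromosome X are 2, Gria3 and Gabra3, with no site of any factor, and none is on chromosome 15. The part of these IgG differences in the results was not tested.

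Med1 was found at the 5′ end of few receptor genes, and Carm1 and Jmjd1c at almost none. A Med1 site had its midpoint within 1.5 kb of the 5′ end of 8 of 41 receptor genes (19.5%), against 39.8% of all protein-coding genes. No receptor gene had a Carm1 site there, against 9.67% of all genes. Grin3a alone had a Jmjd1c site (2.44% of the receptor genes, against 8.46% of all genes). Inside the genes and away from the 5′ end, 10 receptor genes (24.4%) had a Med1 site, 9 (22%) a Carm1 site and 8 (19.5%) a Jmjd1c site, against 16.1%, 10.1% and 9.41% of all genes. Receptor genes are long, however, with a median of 223474 bp against 15420.5 bp for all genes, and a long gene has more room for a site.

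Among long genes, fewer receptor genes held a site in the gene body. Of the 26 receptor genes of at least 100 kb, 8 had a Med1 site in the gene body (30.8%), against 51.9% of the 2401 protein-coding genes of that length, although the receptor genes were the longer ones (median of 385922 bp against 166922 bp). For Carm1 7 of 26 had one (26.9%, against 44.4%) and for Jmjd1c also 7 of 26 (26.9%, against 42.2%). The 15 shorter receptor genes did not show this, since 2 had a Med1 site (13.3%, against 11.8% of genes under 100 kb), 2 a Carm1 site (13.3%, against 5.95%) and 1 a Jmjd1c site (6.67%, against 5.47%). At the 5′ end, Med1 was present in 5 of these 26 (19.2%) against 47% of the long genes, with 8.87% and 8.54% of the long genes for Carm1 and Jmjd1c. Sites of all 3 factors were found in 4 receptor genes, among them Grid1, Grm5 and Grm7, which is 9.76% of the receptor genes against 8.36% of all genes, but 15.4% of the long receptor genes against 32.8% of long genes. Per Mb of gene body, the receptor genes of at least 100 kb held 1.41 Med1, 1.23 Carm1 and 1.32 Jmjd1c sites, and all protein-coding genes of that length held 5.50, 3.20 and 3.36. Grm5 carried 10 of the 50 gene body sites of the 41 genes, and without it their density over the 3 factors together fell from 4.16 to 3.48 sites per Mb.

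**Figure D1:**
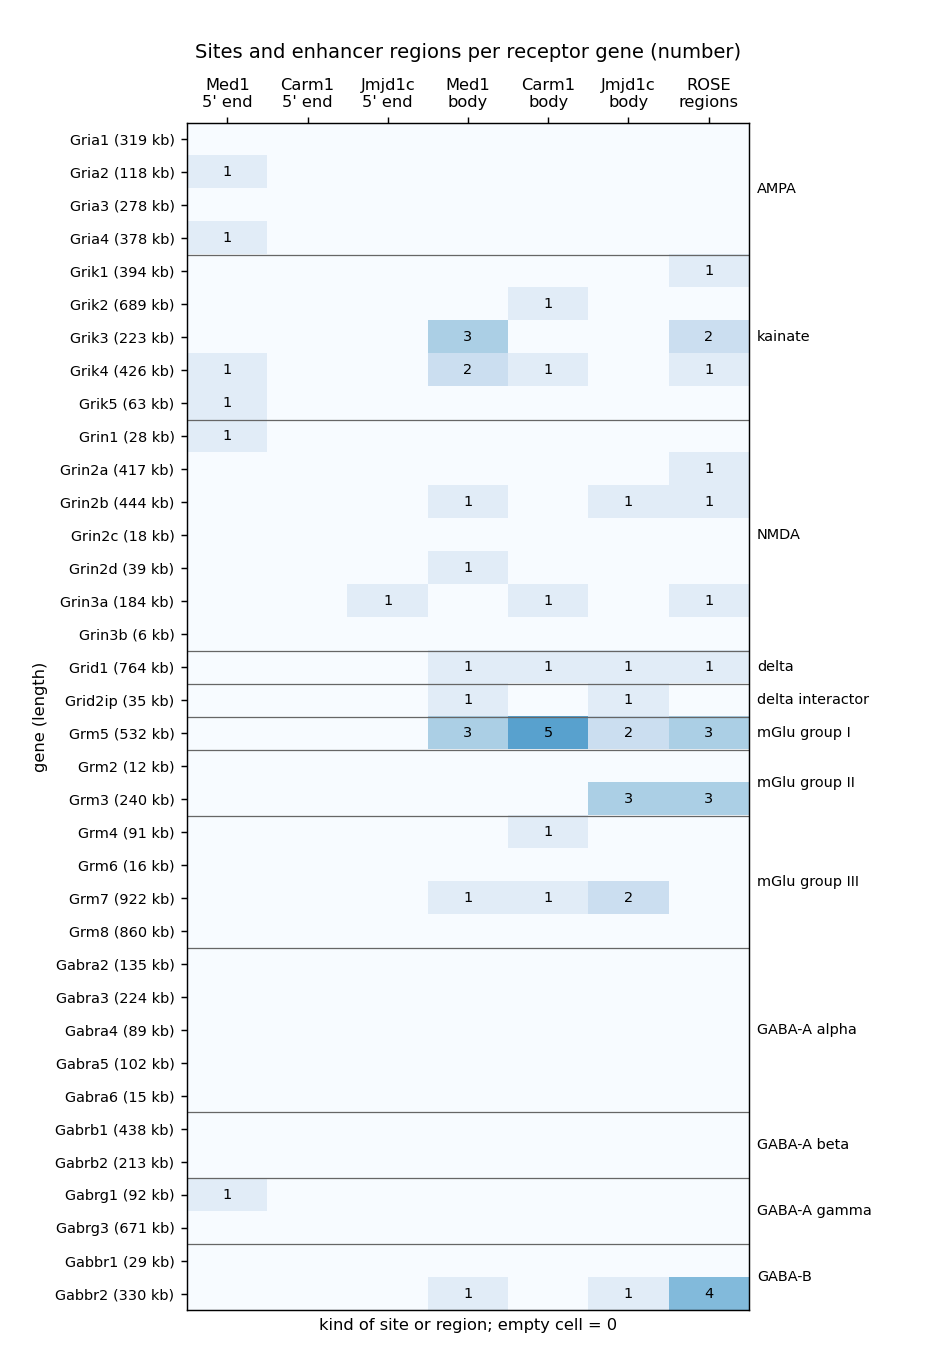
Number of Med1, Carm1 and Jmjd1c sites at the 5′ end and in the gene body, and of enhancer regions, for 36 of the 41 genes, ordered by family, from 1 sample per antibody. Sites at the 5′ end are Med1 sites except for that of Jmjd1c in Grin3a, and the most gene body sites in the plot are those of Grm5.

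**Figure D2:**
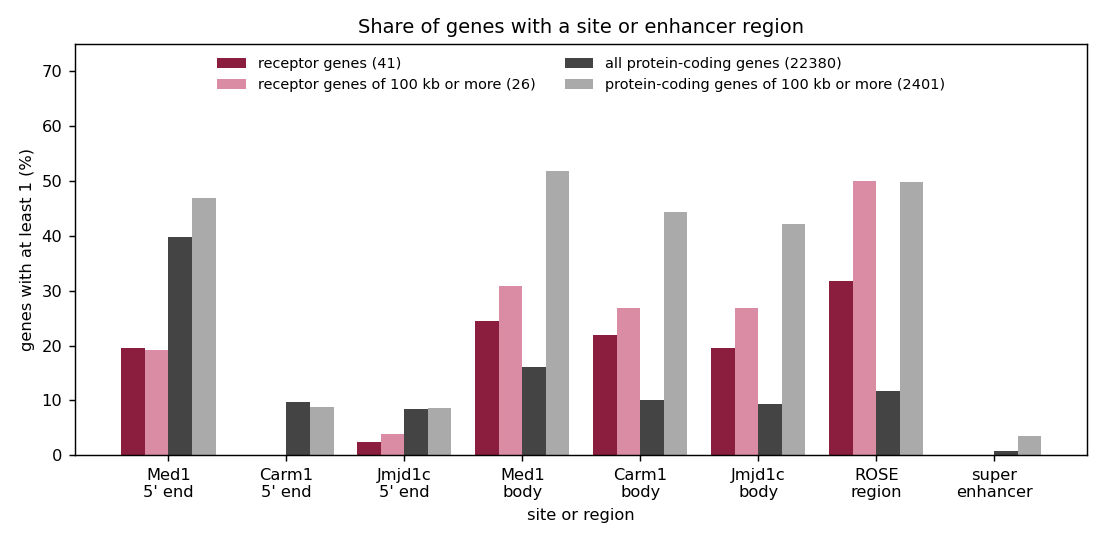
Percentage of genes with each feature among receptor genes and among protein-coding genes, for all lengths and for genes of at least 100 kb. The long receptor genes lie under the long genes for sites of all 3 factors and level with them for the share of genes with an enhancer region (50% and 49.9%).

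Among the AMPA receptor genes, which encode the subunits of the fast excitatory channel, Gria2 and Gria4 had a Med1 site at the 5′ end and Gria1 and Gria3 had no site of any factor. The site of Gria2, whose subunit limits the calcium entry of the channel, was 1284 bp wide with its midpoint 58 bp upstream of the 5′ end. The site of Gria4 was 1752 bp wide and its midpoint lay 432 bp downstream, in an intron. No AMPA receptor gene had a site of any factor in the gene body or an enhancer region, over 1.09 Mb of gene sequence.

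Of the kainate receptor genes, Grik4 and Grik5, which encode the high-affinity subunits, had Med1 at the 5′ end. The site of Grik4 (1773 bp) was centred 1 bp from the 5′ end, and that of Grik5 (2214 bp) 381 bp upstream. In the NMDA receptor family, the site of Grin1, the gene of the obligatory subunit, was the narrowest of the 8 (735 bp, centred 6 bp from the 5′ end). Grin3a had a Jmjd1c site of 248 bp centred 131 bp downstream, and no Med1 site overlapped it.

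Of the 12 GABA-A genes 2 had Med1 at the 5′ end. That of Gabrg1, whose gamma subunit belongs to channels that benzodiazepines can act on, was 1768 bp wide and centred 280 bp upstream. None of the 8 metabotropic glutamate receptor genes and neither GABA-B gene had a site of any factor at the 5′ end. When the start of any transcript was taken instead, Med1 was also found for Grin2d, an NMDA subunit gene, and for Grid2ip, which made 10 of 41 genes against 42.8% of all genes.

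The 5′ Med1 sites of the receptor genes were of common width and stood alone. Their median width was 1760 bp, and that of all Med1 sites at a 5′ end 1782 bp. None of the 8 overlapped a Carm1 or Jmjd1c site, against 32.1% of the 7928 Med1 sites at the 5′ end of a gene. The receptor genes had almost no Carm1 or Jmjd1c site at the 5′ end, so little overlap was possible there. The Med1 list is not in genome order and the sources do not state its order. Of the 8 sites 1 was among its first 5000, against 36.6% of all Med1 sites at a 5′ end.

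CpG content at the 5′ end went with Med1 over all genes, and the 41 receptor genes together did not lack it. CpG-rich here means a ratio of observed to expected CpG of at least 0.6 and a GC content of at least 50% within 500 bp of the 5′ end, which 19 of 41 receptor genes met (46.3%), against 44.1% of all genes. Among genes of at least 100 kb the share was lower for receptor genes, 13 of 26 (50%) against 61.3%. Of the CpG-rich receptor genes 5 of 19 had Med1 (26.3%), against 71.8% of the 9880 CpG-rich genes. Without a CpG-rich 5′ end, 3 of 22 had Med1 (13.6%), against 14.6%. The receptor genes with Med1 had ratios from 0.372 to 0.975 (median 0.657) and those without it from 0.0905 to 0.957 (median 0.558), so the ranges overlapped almost wholly. For all genes with and without Med1, the medians were 0.761 and 0.288.

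The sequences before 4 of the genes show the extremes of CpG count upstream of the annotated 5′ end. Whether these starts are the ones in use was not tested. They are the 150 bases upstream of the 5′ end in mm9, written 5′ to 3′ on the strand of the gene, with each CpG in capitals, and were chosen for the most and the fewest CpG with and without Med1 (Gabra3 also had 0 and no Med1). Grik4 (28 CpG) and Gabrg1 (0 CpG) had a Med1 site, and Gabbr2 (27 CpG) and Grm5 (0 CpG) had none.
Grik4, chr9:42752577-42752726, minus strand: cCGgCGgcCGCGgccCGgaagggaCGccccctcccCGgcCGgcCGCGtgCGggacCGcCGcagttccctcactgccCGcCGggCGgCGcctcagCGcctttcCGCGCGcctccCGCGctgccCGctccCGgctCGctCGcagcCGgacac
Gabbr2, chr4:47004746-47004895, minus strand: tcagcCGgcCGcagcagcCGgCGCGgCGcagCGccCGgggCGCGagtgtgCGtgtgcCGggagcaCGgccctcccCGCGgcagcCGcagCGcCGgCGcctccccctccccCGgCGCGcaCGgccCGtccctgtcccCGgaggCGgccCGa
Gabrg1, chr5:71233857-71234006, minus strand: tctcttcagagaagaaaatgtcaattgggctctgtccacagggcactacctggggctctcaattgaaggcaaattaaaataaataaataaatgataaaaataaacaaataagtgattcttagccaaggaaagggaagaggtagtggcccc
Grm5, chr7:94750802-94750951, plus strand: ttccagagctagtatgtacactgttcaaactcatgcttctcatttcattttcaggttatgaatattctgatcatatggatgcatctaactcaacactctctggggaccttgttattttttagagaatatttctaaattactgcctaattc
The median was 7 CpG for the receptor genes and 6 for all protein-coding genes.

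**Figure D3:**
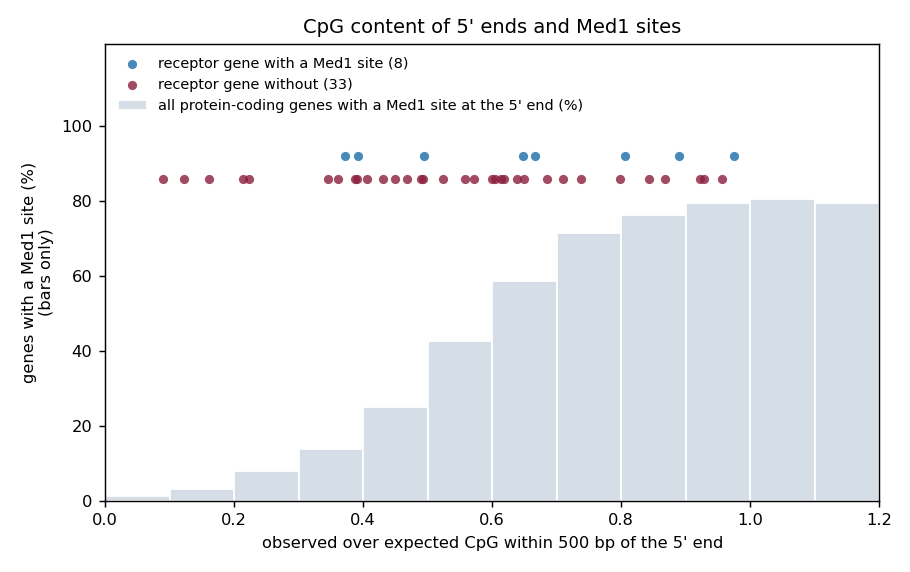
Observed to expected CpG ratio at the 5′ end of each receptor gene with and without a Med1 site, beside the percentage of all protein-coding genes with a Med1 site in each bin of that ratio. The percentage rises from 1.28% in the lowest bin to between 79.4% and 80.6% in the highest 3 bins, and CpG-rich receptor genes without Med1 lie in the upper bins.

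In some receptor genes, gene body sites of several factors sat at the same place, and the shares beside all sites are given further on. Grid1, the gene of the delta-1 receptor, had 1 site of each factor, and the 3 overlapped at 254.8 kb. Grid2ip had a Med1 site overlapping a Jmjd1c site, with the midpoint of the Med1 site 91 bp from the start of one of its shorter transcripts.

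Among kainate genes, Med1 sites stood without the other factors. Grik3 had 3 Med1 sites, at 13.7, 154.6 and 212.3 kb from the 5′ end, and the last of them stood at place 4289 of the list. Grik4 had 2 Med1 sites at 141.2 and 145.2 kb and a separate Carm1 site at 78.8 kb. Grik2 had 1 Carm1 site only. Of the NMDA genes, Grin2b had Med1 and Jmjd1c together at 7.76 kb, Grin3a had a Carm1 site at 18.9 kb, and the Med1 site of Grin2d lay in a coding exon at 4.72 kb, at place 2761.

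Of the metabotropic glutamate receptor genes, Grm5 held the most sites. It encodes mGlu5, a receptor coupled to phospholipase C. Its 3 Med1, 5 Carm1 and 2 Jmjd1c sites were all intronic, and all 3 factors overlapped at 160.0 kb from the 5′ end. A second Carm1 site lay within the same Med1 site. The Carm1 sites at 239.5 and 494.3 kb did not overlap a site of another factor. Grm3, which encodes an inhibitory mGlu receptor, had 3 Jmjd1c sites at 63.2, 97.9 and 167.4 kb and neither Med1 nor Carm1. Grm7 had a Carm1 site overlapping a Jmjd1c site at 64.3 kb, and single sites of Med1 at 723.8 kb and of Jmjd1c at 865.5 kb. Grm4 had 1 Carm1 site.

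GABA receptor genes held almost no gene body sites. The 12 GABA-A genes together held 1, a Carm1 site. Gabbr2, which encodes the G protein-coupling subunit of the GABA-B receptor, had a Med1 site overlapping a Jmjd1c site at 132.6 kb. Gabbr1 had none. Glutamate receptor genes other than Grid2ip held 45 gene body sites over 9.27 Mb, and GABA receptor genes 3 over 2.72 Mb.

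**Figure D4:**
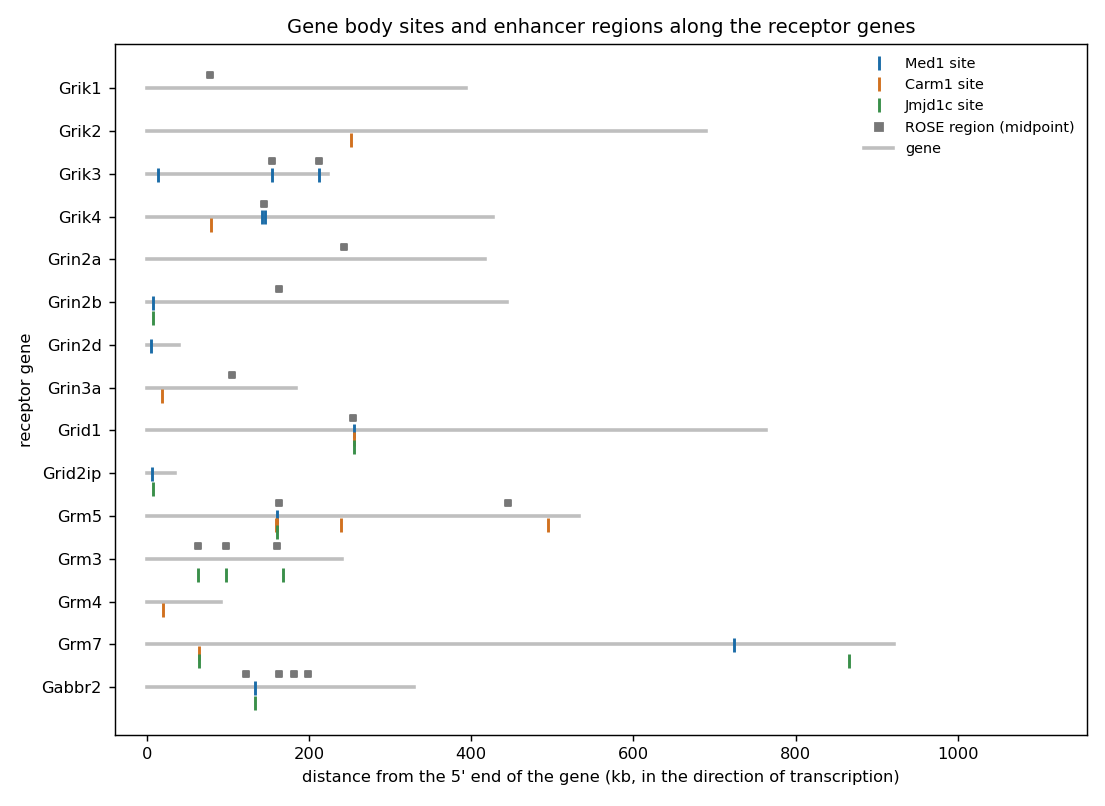
Positions of Med1, Carm1 and Jmjd1c sites and of enhancer regions along 15 receptor genes with a gene body site or a region, drawn by distance from the 5′ end in kb (1 stretch of Grm5 is left out). Sites of all 3 factors coincide at 254.8 kb in Grid1 and at 160.0 kb in Grm5.

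In the receptor genes Med1 met the other factors in gene bodies and not at 5′ ends, where these factors were almost absent. Over all sites, Carm1 and Jmjd1c met another factor more often at 5′ ends (88.3% and 88.9%) than elsewhere. Med1 did so less often (32.1% at 5′ ends). Of the 18 Med1 sites in gene bodies, 10 overlapped a Carm1 or Jmjd1c site (55.6%), against 39.5% of all Med1 sites not at a 5′ end. All 10 overlapped a Jmjd1c site (55.6%, against 30.5%) and 5 a Carm1 site (27.8%, against 26.3%). Of the 16 Jmjd1c sites 12 overlapped another factor (75%, against 73%), and of the 16 Carm1 sites 8 did (50%, against 60%). Sites of the 3 factors were narrower than or close to the other sites outside 5′ ends, with medians of 1113.5 bp against 1300 bp for Med1, 244.5 bp against 270 bp for Carm1 and 315.5 bp against 321 bp for Jmjd1c. Of the Carm1 sites 8 of 16 had a width of 236 bp, the least in the Carm1 list, against 32.9% of all Carm1 sites.

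The sequence where the factors met was read from mm9. Carm1, Jmjd1c and Med1 overlapped at 5 places in the receptor genes, and 2 of them, in Grid1 and Grm5, are shown as examples of sequence that carried all 3 factors. Each is 201 bases of the plus strand around the middle of the stretch shared by Carm1 and Jmjd1c. Capitals mark matches on either strand to an E-box (CAGNTG), to the core of the NFI site (TTGGC) or to a SOX word (ACAAAG or ACAATG), which are motifs of transcription factor families known from NSCs.
Grid1, chr14:35887869-35888069: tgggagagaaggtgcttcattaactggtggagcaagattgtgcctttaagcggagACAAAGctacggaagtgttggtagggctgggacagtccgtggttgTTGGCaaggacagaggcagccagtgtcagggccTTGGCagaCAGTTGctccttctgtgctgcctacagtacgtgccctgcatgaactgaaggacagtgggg
Grm5, chr7:94910882-94911082: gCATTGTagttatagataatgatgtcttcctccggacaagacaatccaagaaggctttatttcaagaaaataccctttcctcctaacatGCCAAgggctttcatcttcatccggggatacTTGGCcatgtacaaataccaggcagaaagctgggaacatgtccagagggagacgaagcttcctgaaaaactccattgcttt
Matches to an E-box, an NFI core and a SOX word were each found in 3 of the 5 places, and 1 place had none. The Grid1 sequence held all 3 kinds of word, and the Grm5 sequence an NFI core on either strand and a SOX word. A match is a word in the sequence and not a site of the factor, and at these lengths such words are common. Over all sites, windows of 201 bp around the midpoint held an E-box at 41.7% of Med1, 47.6% of Carm1 and 53.1% of Jmjd1c sites, and in receptor genes at 12 of 26 (46.2%), 7 of 16 (43.8%) and 10 of 17 (58.8%). An NFI core was in 14 of 26 Med1 (53.8%, against 39.4%), 6 of 16 Carm1 (37.5%, against 45.9%) and 8 of 17 Jmjd1c windows (47.1%, against 48.9%). A SOX word was in 6 of 26 Med1 (23.1%, against 22.5%), 8 of 16 Carm1 (50%, against 31.5%) and 6 of 17 Jmjd1c windows (35.3%, against 34.1%). Sites that overlap share these bases, so the 3 factors do not give separate counts.

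Enhancer regions were found in as large a share of long receptor genes as of long genes, but were fewer per Mb and carried less Med1 per kb. These regions were made by the authors from Ep300 and H3K27ac peaks joined with ROSE. The paper states that NSC enhancers had been defined earlier by H3K27ac and Ep300, and no sample here measured either. Regions were ranked by Med1 minus IgG signal, and ranks up to 445 are called super enhancers (SEs). A region lay in 13 of 41 receptor genes (31.7%), against 11.8% of all genes. All 13 were among the 26 receptor genes of at least 100 kb (50%), against 49.9% of the long genes. Per Mb, the long receptor genes held 2.56 regions and all long genes 4.51. No receptor gene held an SE, against 0.853% of all genes and 3.5% of long genes, but 1 did when regions were ranked by Med1 without subtraction of IgG. Of the 29 regions, 4 lay in Gabbr2, 3 each in Grm3 and Grm5, 2 in Grik3 and 1 each in Grid1, Grik1, Grik4, Grin2a, Grin2b and Grin3a. Regions were placed by position. Most were nearest the 5′ end of their own gene, but some were nearer that of another, such as the Grin3a region (Ppp3r2). The paper assigns an enhancer to its nearest active gene, which was not done here.

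The Med1 signal of the 29 regions ranged from 75.6 to 837 per kb with a median of 254.7, against a median of 366.0 over all regions and 323.4 over regions in genes of at least 100 kb. The IgG signal per kb was close to that of the others (median 123.2 against 131.6 for all and 121.5 in long genes). The median ratio of Med1 to IgG was 2.01, leaving out regions with IgG at 0, against 2.80 for all regions and 2.66 for those in long genes. Of the 29, 20 lay under the median Med1 per kb of all regions, and their median rank was 5965 of 8089. A Med1 site overlapped 10 of 29 regions (34.5%, against 53.9%), a Carm1 site 7 (24.1%, against 33.4%) and a Jmjd1c site 11 (37.9%, against 38.8%).

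The 29 regions ranked between 565 and 8074, and 2 of those in Grm5 ranked 1604 and 6888. The region with most Med1 per kb was in Grik3, with 837 per kb against 152 for IgG in 1597 bp (chr4:125379228-125380824), and ranked 2053. That of Grid1 followed at rank 2054 with 555 per kb against 186 for IgG in 2968 bp, and it held the place where all 3 factors overlapped.

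The 3 regions of Grm3, each with a Jmjd1c site and no Med1 site, ranked 4770, 5676 and 6998. The 4 regions of Gabbr2 ranked from 4569 to 8074, and the last had less Med1 than IgG (75.6 against 95.0 per kb), as 367 of all 8089 regions did. The site of Med1 and Jmjd1c in Gabbr2 lay outside all 4. The regions of Grin2a, Grin2b, Grin3a and Grik1 ranked from 5965 to 7419, that of Grik4 ranked 6512 and the second of Grik3 4826. Those of Grin2a and Grik1 were in genes with no site of any factor. The IgG signal of 3 short regions, among them those of Grin3a and Grik4, is listed at 0, and no ratio is given for them.

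**Figure D5:**
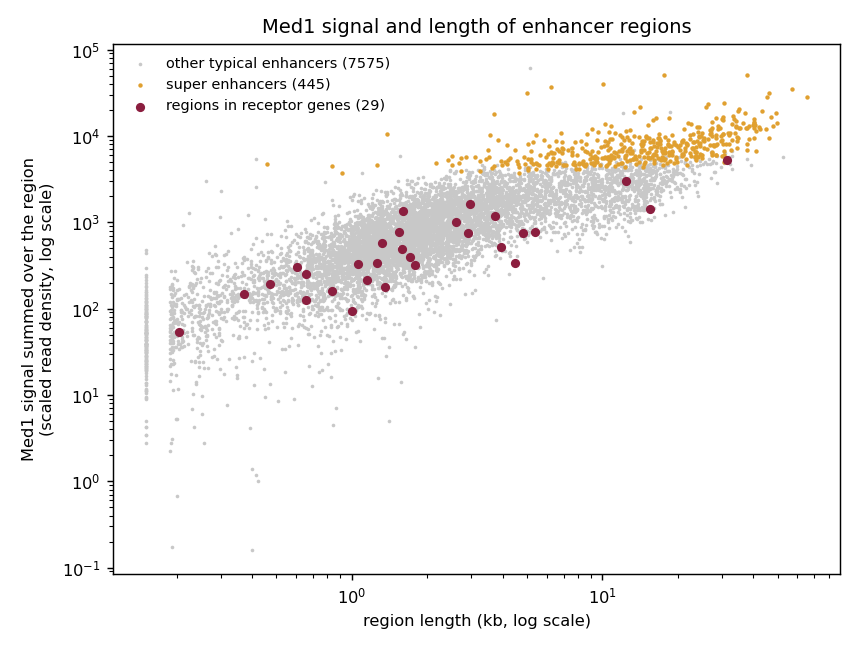
Med1 signal summed over the region against region length in kb, on log axes, of the 29 enhancer regions in receptor genes, of the SEs and of the other regions, from 1 sample per antibody (regions with Med1 at 0 are left out). The regions in receptor genes lie among the typical enhancers and none is an SE.

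Of the 50 gene body sites 30 were in an enhancer region, 11 of 18 for Med1, 8 of 16 for Carm1 and 11 of 16 for Jmjd1c. Regions with an overlapping Med1 site were in 5 receptor genes, among them Grid1, Grik3, Grik4 and Grm5. These counts were not made over all sites or all genes, so they cannot be called high or low. Of the 29 regions 15 had no site of any factor. That is a larger share than the 2657 of all 8089 regions and the 973 of 2681 in genes of at least 100 kb.

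For 20 of the 41 receptor genes no site of any factor was listed at the 5′ end or in the gene, and 21 had one (51.2%), against 51.7% of all genes. Of the long receptor genes 53.8% had a site, against 79.4% of long genes. The 20 include Gria1, Gria3, Grik1, Grin2a, Grin2c, Grin3b, Grm2, Grm6, Grm8, Gabra2, Gabra3, Gabra4, Gabra5, Gabra6, Gabrb1, Gabrb2, Gabrg3 and Gabbr1, and 17 of the 20 had no enhancer region either. Of the 20, 12 are at least 100 kb long. By family, a site was found in 12 of 18 ionotropic glutamate receptor genes, 4 of 8 metabotropic, 3 of 12 GABA-A and 1 of 2 GABA-B genes. A gene without a listed site may hold binding under the authors' threshold, which cannot be seen at an unknown depth.

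The nearest Med1 site lay farther away than for all genes, a measure from the same lists and not separate from the counts above. From the 5′ end of the receptor genes it was at a median distance of 81.1 kb, against 11.1 kb for all genes and 4.77 kb for genes of at least 100 kb. For Carm1 the median was 222.1 kb against 73.8 kb for all genes, and for Jmjd1c 299.8 kb against 89.5 kb. For the 20 genes without a site, the nearest Med1 site was 10.2 to 1245 kb away with a median of 257.3 kb. They were picked for having no site, so long distances follow in part from the choice. The distance was not computed for other genes without a site.

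Most GABA-A genes lie in clusters of neighbouring genes. The cluster of Gabrg1, Gabra2, Gabra4 and Gabrb1 on chromosome 5 spans 1.39 Mb and had 1 Med1 site, that of Gabrg1, and 1 enhancer region, between genes. The autosomes as a whole had 7.89 Med1 sites per Mb.

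Other genes of the same synapses were looked at by list, and the share of all protein-coding genes stands beside each count. The lists were not matched for length. Of protein-coding genes of at least 100 kb, 79.4% had a site, 49.9% a region and 3.5% an SE. Of 12 genes of other GABA-A subunits and glycine receptors, 3 had a site of any factor (25%, against 51.7%), 1 had Med1 at the 5′ end (8.33%, against 39.8%), namely Glrb, the beta subunit of the glycine receptor, and none had an enhancer region (against 11.8%). Of 19 genes of transmitter transport and metabolism, 14 had a site (73.7%, against 51.7%) and 7 a region (36.8%, against 11.8%). Med1 was at the 5′ end of 8 of the 19 (42.1%), near the 39.8% of all genes. The 1 gene with an SE (5.26%, against 0.853%) was Slc1a3, which encodes a glial glutamate transporter. Its SE ranked 53 and lay on chromosome 15, where IgG was high. The GABA transporter gene Slc6a11 had a region at rank 897 and 5 sites. Of 30 genes of receptor scaffolds and auxiliary subunits, 24 had a site (80%, against 51.7%) and 16 a region (53.3%, against 11.8%). Med1 was at the 5′ end of 12 of the 30 (40%), again near the 39.8% of all genes, and Carm1 and Jmjd1c were each at the 5′ end of 4 (13.3%, against 9.67% and 8.46%). The 4 with an SE (13.3%, against 0.853%) were Camk2b (rank 353), Dlg4 (374), Cacng4 (378) and Cacng5 (231), a kinase subunit, the scaffold PSD-95 and 2 AMPA receptor auxiliary subunits. All 4 are on chromosome 11, where IgG was high, and the part of IgG in their ranks was not tested.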

How the data were processed

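Untreated NS-5 cells gave 1 ChIP-seq sample each for Med1, Jmjd1c, Carm1 and IgG. Reads were aligned by the authors to mm9 (Bowtie 0.12.7), who merged replicates where there were several, removed duplicates (the submitters' notes name Picard 1.81) and called sites against IgG with MACS 1.4.2. The thresholds of the Carm1 and Jmjd1c lists are not settled here, nor is whether a sample pools cultures. For the enhancer table, the authors joined Ep300 and H3K27ac regions within 12.5 kb with ROSE, excluded the 1 kb before and after each TSS, and deposited the Med1 and IgG signal of each region, read density scaled to mapped reads and summed over the region. The deposited site lists and regions hold positions.

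Site starts were written from 1. Genes, introns and 5′ ends came from GENCODE vM1 on NCBIM37, the same build. Sites were assigned by midpoint, within 1.5 kb of the 5′ end or else in the gene, and regions by their middle. Sites overlapped where they shared 1 bp. CpG used 500 bp and motifs 100 bp on either side. The counting functions were tested on simulated data. Named are genes with a 5′ site or a region, the 5 with most gene body sites and those with no site; the other genes with a site were named after their values were seen. Of the 41 genes 5, and 1 locus, count in the totals and are not reported singly here. Members and lists were chosen with earlier results of these data known. Alternatives changed the distance, transcript, overlap, part of the list and ranking signal. Scripts ran in Python 3.11.15 (pandas 2.3.3, numpy 2.4.6, pysam 0.24.0, matplotlib 3.10.9).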

Additional observations from a re-analysis of the deposited data

How the results depend on the processing

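The 10 counts were recomputed in 45 ways, of which 34 stayed within 1.5 times the value given. Only part of the Med1 list changed the Med1 counts by more: the first 5000 and 10000 sites gave 1 and 5 receptor genes with Med1 at the 5′ end (8 with all sites), 2 and 2 with Med1 in the gene body (10), and the first 5000 gave 1 gene with all 3 factors (4). With midpoints within 5 kb, 1 gene had Carm1 at the 5′ end in place of 0, against 12.0% of all genes. The wider Carm1 sites left 4 genes with a gene body site in place of 9. For Jmjd1c at the 5′ end, any transcript gave 2 genes (with Grid2ip) in place of 1, or 4.88% against 10% of all genes. The wider Jmjd1c sites gave 0 in place of 1. Regions that overlap a Med1 site were in 5 genes in place of 13. When regions were ranked by Med1 without subtraction of IgG, 1 receptor gene held an SE in place of 0. These follow from the sites or regions each setting admits. For part of a list, regions with a Med1 site and the changed ranking, no share of all genes was counted. Leaving out chromosome 11 and leaving out gene body sites near any transcript start were chosen after seeing the data. No paired analysis was possible because each antibody had 1 sample. With 1 sample and unknown depth, neither the error of a count nor binding under the threshold can be given.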
